A study of Mus musculus with 22 samples.

Results

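Germ cells of E12.5 mouse testes that lack Tet1 were set against wild-type testicular germ cells of the same cross and age. The comparison used 4 of the 22 samples in the study, chosen by their labelled stage, sex and genotype, and all genes of the count table. Both genotypes came from intercrosses of Tet1-het mice that carry the GOF18ΔPE-EGFP reporter, a transgene in which a Pou5f1 (Oct4) fragment lights up germ cells. The Tet1-KO group had 2 libraries and the Tet1-WT group had 2, each made from polyA RNA of sorted primordial germ cells (PGCs) of males at E12.5. RNA of 2 to 6 embryos of 1 genotype, worth 1000 to 8000 cells, was pooled for a library, and the cDNA was amplified over 15 cycles. The labels do not say which part of Tet1 is deleted, nor whether the libraries of a group came from different litters. The columns of the 2 Tet1-KO libraries carry the same name in the table, so they are called A and B here. E12.5 female germ cells and E14.5 male germ cells of the same cross, with 2 Tet1-KO and 2 Tet1-WT libraries each, are used where they show how the E12.5 male result differs.

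TET1 is an enzyme that oxidises 5-methylcytosine in CpG dinucleotides to 5-hydroxymethylcytosine and also holds other chromatin regulators at CpG-rich DNA. Mouse PGCs lose most of their DNA methylation while they move to the gonad and settle there, including the marks of imprinted genes, whose alleles differ in expression by parent of origin. Around E12.5 the XY germ cells are still dividing, express pluripotency genes and start to switch on germline genes whose promoters are methylated in other tissues. The comparison asks which transcripts differ when TET1 is missing at this point.

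Promoters of 4 genes with some of the largest called changes are shown first, because CpG sites are where TET1 acts. They are the imprinted genes Grb10 and Nnat, which were lower in Tet1-KO cells, and Lrrc34 and Nup62cl, which were higher. Each line holds the 250 bases before the first start that RefSeq lists for the gene on GRCm38.p6, 5′ to 3′ on the gene's strand, with every CpG in capitals.
Grb10, chr11:12037421-12037670, minus strand: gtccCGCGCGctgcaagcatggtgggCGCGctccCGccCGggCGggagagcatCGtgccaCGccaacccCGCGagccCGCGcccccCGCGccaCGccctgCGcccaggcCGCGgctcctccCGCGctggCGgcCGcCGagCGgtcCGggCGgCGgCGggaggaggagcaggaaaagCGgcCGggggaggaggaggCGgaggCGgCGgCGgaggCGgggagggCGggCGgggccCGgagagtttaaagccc
Nnat, chr2:157559828-157560077, plus strand: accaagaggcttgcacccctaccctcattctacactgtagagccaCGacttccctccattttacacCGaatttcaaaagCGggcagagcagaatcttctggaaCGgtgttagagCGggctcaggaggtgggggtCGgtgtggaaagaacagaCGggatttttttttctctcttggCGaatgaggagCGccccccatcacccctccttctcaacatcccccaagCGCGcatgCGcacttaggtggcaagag
Lrrc34, chr3:30647819-30648068, minus strand: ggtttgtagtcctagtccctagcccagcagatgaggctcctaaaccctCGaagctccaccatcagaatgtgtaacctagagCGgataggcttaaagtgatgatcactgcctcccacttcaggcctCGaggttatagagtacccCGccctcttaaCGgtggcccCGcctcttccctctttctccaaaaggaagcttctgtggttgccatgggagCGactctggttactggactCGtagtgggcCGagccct
Nup62cl, chrX:140062569-140062818, minus strand: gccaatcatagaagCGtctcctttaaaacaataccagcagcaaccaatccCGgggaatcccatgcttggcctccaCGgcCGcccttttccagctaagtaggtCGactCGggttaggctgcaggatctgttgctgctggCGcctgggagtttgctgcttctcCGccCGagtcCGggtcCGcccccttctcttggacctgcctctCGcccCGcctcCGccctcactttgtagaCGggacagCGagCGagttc

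The Grb10 stretch held 40 CpGs, and 2.29% of the 12251 tested genes with a listed promoter had as many. Nnat held 12 CpGs, a number reached by 61.4% of those promoters, Lrrc34 held 9 (71.5%) and Nup62cl held 17 (43.0%). A comparison of CpG number between the changed genes and all tested genes is void, because a promoter was listed for 71.5% of the lower genes and 72.9% of the tested genes with a symbol. These counts describe sequence letters, and no methylation was measured in the files used here.

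The total count of reads in genes lay between 12327972 and 15658833 over the 4 libraries. Levels are given as CPM, read counts divided by library size with edgeR's TMM factors, and a change is the log2 of Tet1-KO over Tet1-WT with its standard error (SE). Across genes, log2 levels correlated at r = 0.976 between the Tet1-KO libraries and 0.974 between the Tet1-WT libraries, and at 0.938 to 0.962 between genotypes. Xist had no read in 3 of the 4 libraries, and the Y-linked Eif2s3y averaged 240.0 ± 14.4 CPM in Tet1-KO and 167 ± 1.82 CPM in Tet1-WT libraries (SD, n = 2 each), which fits the male labels. The 10 germ cell markers, among them Pou5f1, Ddx4, Dazl and Dppa3, summed to 6783 and 6842 CPM in Tet1-KO and to 4964 and 5985 CPM in Tet1-WT libraries. Dppa3 alone held 3424 and 3151 CPM in Tet1-KO and 2263 and 2421 CPM in Tet1-WT libraries. The median log2 change of the 10 was 0.31, with 8 above 0 and 2, Dazl among them, below. None was called in the main edgeR fit. With the 4 libraries alone 4 were called higher, with no filter on low counts 3 higher and 1 lower, and by DESeq2 1 higher.

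Tet1 itself had 79.3 and 84.4 CPM in Tet1-KO libraries A and B, against 178 and 309 CPM in Tet1-WT libraries 1 and 2. The groups did not overlap, and the Tet1-WT libraries lay further apart than the Tet1-KO libraries. The log2 change of -1.57 (SE 0.37) missed the threshold of 0.05 at an adjusted p of 0.0553 (edgeR quasi-likelihood test, Benjamini-Hochberg over 17567 genes). There were 7 other fits without a covariate that kept the 4 libraries, with other tools, scalings, filters or the 4 libraries alone. All but the last used the 20 libraries of the cross, so these fits share data. Tet1 was called lower in all 7 (adjusted p between 1.9e-08 and 0.0453). It was not called with the mesenchyme covariate or with any 1 library left out. Counts over the whole gene include reads from any part that the deletion leaves in place. Tet2 had 17.7 and 15.5 CPM in Tet1-KO and 33.9 and 21.8 CPM in Tet1-WT libraries, and Tet3, the family member best known from oocytes and neurons, had 5.13 and 2.53 CPM against 15.3 and 11.3 CPM. Neither was called, with adjusted p of 0.352 and 0.448.

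Loss of Tet1 went with many more called falls than rises. Of 17567 genes tested, 186 were called (1.06%), 165 lower in Tet1-KO cells (0.939%) and 21 higher (0.12%). The falls had a median log2 change of -2.32, between -9.79 and -0.86, and a median level of 13.7 CPM in Tet1-KO against 68.4 CPM in Tet1-WT libraries. The rises were smaller, with a median log2 change of 0.84 between 0.54 and 1.75, and came from more abundant transcripts, at a median of 156 CPM in Tet1-KO and 77.4 CPM in Tet1-WT libraries. All but 2 of the falls came from protein-coding genes, and the others were the imprinted non-coding RNAs H19 and Meg3. X-linked genes made up 7.27% of the falls and 23.8% of the rises (5 of 21), against 4.13% of tested genes.

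The same falls also ran along a gradient inside the Tet1-WT group. Tet1-WT 1 was above Tet1-WT 2 for 161 of the 165 falls (97.6%), against 45.8% of all genes tested, and Tet1-KO A was above Tet1-KO B for 116 (70.3%), against 44.8%. The 20 markers of gonadal and mesonephric mesenchyme, the supporting tissue around the germ cells, were ordered the same way, with sums of 273 and 208 CPM in Tet1-KO A and B and 1866 and 1222 CPM in Tet1-WT 1 and 2. With the mean level of these markers in each library as a covariate, no gene was called in either direction, and 47 of the 186 changes turned sign. Part of this covariate is itself the genotype difference, so the level of mesenchymal RNA and the genotype cannot be told apart in these 4 libraries. Fewer cells of a type and less of its RNA per cell also cannot be told apart in bulk samples.

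**Figure D1:**
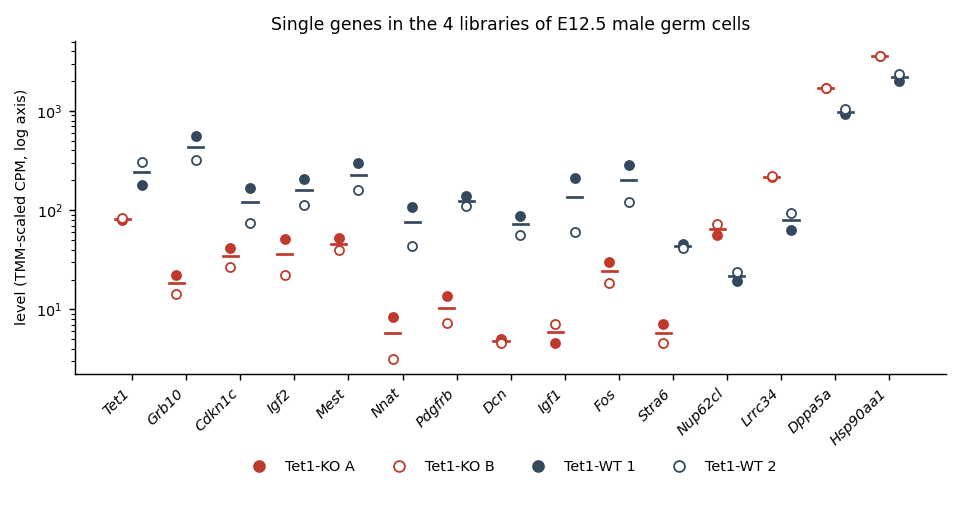
Level of 15 genes (TMM-scaled CPM, log axis) in Tet1-KO libraries A and B (red) and Tet1-WT libraries 1 and 2 (dark blue), with bars at the mean of each pair. The genotypes do not overlap for any gene shown, which also holds for all 165 falls and 21 rises. Tet1-WT 1 lies above Tet1-WT 2 for the falls between Grb10 and Stra6.

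Receptors and growth factors of connective tissue were among the 20 largest falls of genes that reached a mean of 5 CPM in a genotype. Igf1, an insulin-like growth factor, had 4.63 and 7.14 CPM in Tet1-KO and 213 and 60.0 CPM in Tet1-WT libraries (log2 -4.53, SE 0.70, adjusted p = 0.00663). The Tet1-WT libraries differed widely from each other, and the 20 largest falls were chosen among genes without overlap between the genotypes. Ednra, the receptor for endothelin-1, fell to 3.11 and 3.87 CPM in Tet1-KO libraries, against 67.1 and 43.7 CPM in Tet1-WT libraries (log2 -3.98, SE 0.83, adjusted p = 0.0325). Itga8, an integrin chain of kidney and gonad mesenchyme, had 1.68 and 5.47 CPM in Tet1-KO and 95.7 and 56.3 CPM in Tet1-WT libraries (log2 -4.39, SE 0.94, adjusted p = 0.0384). Igfbp5, a binding protein for insulin-like growth factors, stood at 21.4 and 13.7 CPM in Tet1-KO and 221 and 139 CPM in Tet1-WT libraries (log2 -3.36, SE 0.56, adjusted p = 0.00853). These genes share low levels in both Tet1-KO libraries and the higher value in Tet1-WT 1.

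Other large falls came from genes of low level. Mcoln3, a calcium channel of endosomes, had no read in either Tet1-KO library and 6.45 ± 5.76 CPM in Tet1-WT libraries (SD, n = 2), which is at least 28.5-fold lower when the Tet1-KO libraries are set to a floor of 3 counts per library (adjusted p = 0.0438). Arhgap24, a GTPase-activating protein, had 0.168 and 0.0667 CPM in Tet1-KO and 11.6 and 6.89 CPM in Tet1-WT libraries (log2 -6.26, SE 1.02, adjusted p = 0.00806). Prps2, an X-linked enzyme of nucleotide synthesis, had 0.421 and 0 CPM in Tet1-KO and 8.83 and 8.40 CPM in Tet1-WT libraries (log2 -5.41, SE 1.11, adjusted p = 0.0276). Both Tet1-WT libraries were close to each other for Prps2, unlike Mcoln3 and Arhgap24. Podxl, a sialomucin of epithelial and stem cell surfaces, had 0.421 and 0.200 CPM in Tet1-KO and 12.3 and 4.39 CPM in Tet1-WT libraries (log2 -4.74, SE 0.80, adjusted p = 0.00904). Hdac10, a deacetylase that acts on polyamines, had 0.421 and 0.734 CPM in Tet1-KO and 10.2 and 4.64 CPM in Tet1-WT libraries (log2 -3.65, SE 0.82, adjusted p = 0.0478).

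The called imprinted genes were all lower in Tet1-KO cells, while with no filter on low counts 2 were called higher and 17 lower. Of 24 tested genes listed as expressed from the maternal allele, 6 were called lower, with a median log2 change of -1.34. Of 31 listed as expressed from the paternal allele 5 were called lower, with a median of -0.59. Gnas stood in both lists and was not called. Over all tested genes the median was 0.00 and 0.939% were called lower. Both parental classes therefore held falls. The 57 listed imprinted genes in the count table together reached 1948 and 1786 CPM in the Tet1-KO libraries, compared with 4541 and 3395 CPM in the Tet1-WT libraries.

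Grb10, an adaptor that dampens insulin and growth factor receptors, had the largest change among the called maternally expressed genes. It had 22.5 and 14.3 CPM in Tet1-KO and 554 and 318 CPM in Tet1-WT libraries (log2 -4.57, SE 0.56, adjusted p = 0.00314). Its promoter was the CpG-dense stretch printed above. Cdkn1c, the cell cycle inhibitor p57, had 41.5 and 26.9 CPM in Tet1-KO and 169 and 73.8 CPM in Tet1-WT libraries (log2 -1.83, SE 0.37, adjusted p = 0.0259). Meg3, a long non-coding RNA of the Dlk1 cluster, had 7.07 and 2.53 CPM in Tet1-KO and 50.3 and 29.1 CPM in Tet1-WT libraries (log2 -3.06, SE 0.52, adjusted p = 0.00941). Cd81, a tetraspanin of the cell surface, had 74.5 and 65.6 CPM in Tet1-KO and 245 and 174 CPM in Tet1-WT libraries (log2 -1.58, SE 0.21, adjusted p = 0.00575). The remaining called members were H19, with a log2 change of -2.24, and Asb4, part of a ubiquitin ligase, with -1.75.

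Among paternally expressed genes, Igf2, the fetal growth factor, had 50.8 and 22.3 CPM in Tet1-KO and 206 and 114 CPM in Tet1-WT libraries (log2 -2.14, SE 0.42, adjusted p = 0.0236). Mest, a hydrolase-like protein of fetal mesoderm, had 52.2 and 39.6 CPM in Tet1-KO and 296 and 160 CPM in Tet1-WT libraries (log2 -2.31, SE 0.41, adjusted p = 0.0137). Nnat, a small membrane proteolipid, had 8.42 and 3.20 CPM in Tet1-KO and 108 and 43.2 CPM in Tet1-WT libraries (log2 -3.72, SE 0.67, adjusted p = 0.0137). As for all 165 falls, the genotypes did not overlap for these genes. Sgce, a sarcoglycan, fell with a log2 change of -3.42. Peg3, a zinc finger protein, had the smallest called imprinted change, with means of 404 CPM in Tet1-KO and 846 CPM in Tet1-WT libraries (log2 -1.06, SE 0.24, adjusted p = 0.0426 by edgeR).

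The mesenchyme list had the lowest median change of the lists tested. Of 20 tested members 7 were called lower, against 0.939% of all tested genes. All 20 had a change below 0, and the median was -2.77. The libraries did not overlap for 19 of them, all lower in Tet1-KO, where 53.3% of all tested genes did not overlap and 26.6% were lower without overlap. Pdgfrb, a receptor for platelet-derived growth factor, had 13.6 and 7.27 CPM in Tet1-KO and 139 and 109 CPM in Tet1-WT libraries (log2 -3.58, SE 0.53, adjusted p = 0.00653). Dcn, the matrix proteoglycan decorin, had 5.05 and 4.60 CPM in Tet1-KO and 88.4 and 56.6 CPM in Tet1-WT libraries (log2 -3.91, SE 0.75, adjusted p = 0.0215). Wnt5a, a secreted signal, had 5.98 and 10.9 CPM in Tet1-KO and 83.4 and 77.5 CPM in Tet1-WT libraries (log2 -3.25, SE 0.54, adjusted p = 0.00886). Mfap4, Meis1, Pdgfra and the nuclear receptor Nr2f2 made up the rest of the called members. No mesenchyme marker was at 0 in both libraries of a genotype.

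Collagens and other matrix genes had a median of -1.75 and 4 of 24 called lower, against 0.939% of all tested genes. Col1a1, the main chain of type I collagen, had 27.9 and 17.7 CPM in Tet1-KO and 232 and 123 CPM in Tet1-WT libraries (log2 -2.97, SE 0.48, adjusted p = 0.00806). Col3a1 fell with a log2 change of -2.47, Fbln2 with -2.57 and Fbln1 with -1.36. Of the 34 tested Hox genes, transcription factors that pattern the trunk, 31 had a change below 0, with a median of -2.40. None of the Hox genes was called in the main edgeR fit. With the 4 libraries alone 7 were called lower, by DESeq2 3, with no filter on low counts 3 and by limma voom 1. Of all 17567 tested genes, 8621 had a change below 0. The 38 Hox genes in the count table together reached 36.4 and 22.9 CPM in Tet1-KO libraries and 169 and 100 CPM in Tet1-WT libraries. Beyond the covariate fit, the part of mesenchymal RNA in the falls of other genes was not tested.

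Markers of other gonadal cells were low. The 17 Sertoli cell genes in the count table summed to 99.7 and 83.6 CPM in Tet1-KO and 213 and 188 CPM in Tet1-WT libraries. Over the 15 tested members the median change was -1.81, with none called in the main edgeR fit. With the 4 libraries alone and with no filter on low counts 3 each were called lower, and 1 each by DESeq2 and limma voom. Amh, the hormone that defines early Sertoli cells, was looked up as their defining marker after other values were seen and had no read in either Tet1-KO library and 1.51 and 1.19 CPM in Tet1-WT libraries. Steroidogenic genes summed to 18.9 and 19.3 CPM in Tet1-KO and 26.0 and 25.9 CPM in Tet1-WT libraries. Blood and macrophage genes summed to 15.4 and 17.5 CPM in Tet1-KO and 16.8 and 9.84 CPM in Tet1-WT libraries. Endothelial genes summed to 235 and 306 CPM in Tet1-KO and 239 and 322 CPM in Tet1-WT libraries, most of it Pecam1, which germ cells also express. No member of the endothelial, blood, erythroid, epithelial, ovarian supporting or steroidogenic lists was called in the main edgeR fit. With the 4 libraries alone 2 epithelial, 2 ovarian supporting and 1 blood gene were called lower, and 1 ovarian supporting gene higher.

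**Figure D2:**
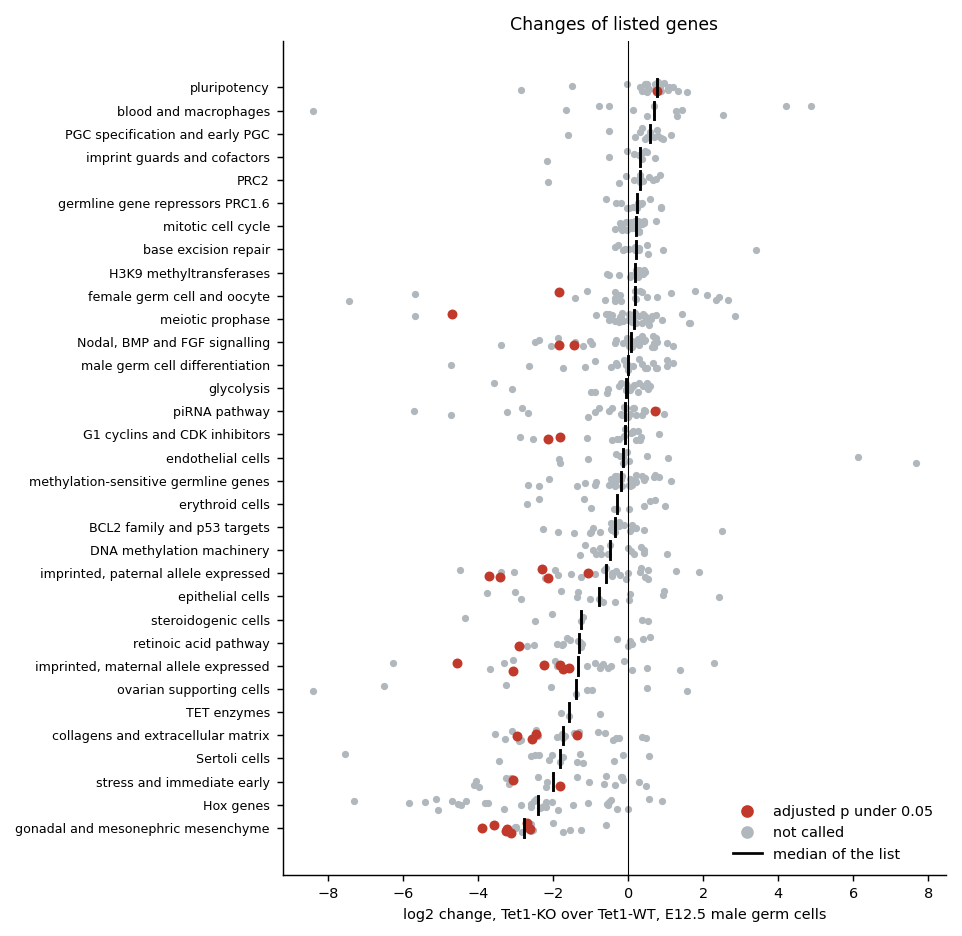
Log2 change, Tet1-KO over Tet1-WT, of each tested member of the gene lists in E12.5 male germ cells, one dot per gene, ordered by the list median (black bar). Red dots passed the threshold. Called falls gather in the mesenchyme, matrix and imprinted lists, and the pluripotency list has the highest median, 0.78.

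Immediate early and stress genes held called falls too. Of 22 tested members 2 were called lower, against 0.939% of all tested genes. Changes below 0 were seen for 20 members, against 8621 of all 17567 tested genes, and the median was -2.00. Fos, a transcription factor induced within minutes of a stimulus, had 30.4 and 18.3 CPM in Tet1-KO and 287 and 120 CPM in Tet1-WT libraries (log2 -3.06, SE 0.62, adjusted p = 0.0271). Btg2, an antiproliferative factor, had 24.7 and 13.9 CPM in Tet1-KO and 81.1 and 56.2 CPM in Tet1-WT libraries (log2 -1.83, SE 0.37, adjusted p = 0.0269). Dissociation of tissue induces such genes, and the handling of each pool is not given.

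The retinoic acid pathway, which starts meiosis in ovaries, had a median log2 change of -1.31 over 18 tested genes. Of these, 13 had a change below 0, and 10 were lower without overlap, against 26.6% of all tested genes. The list summed to 143 and 103 CPM in Tet1-KO and 477 and 352 CPM in Tet1-WT libraries. By edgeR 1 member was called lower, against 0.939% of all tested genes, by DESeq2 5, and 7 with no filter on low counts. The edgeR call was Stra6, the receptor for retinol-binding protein, with 7.07 and 4.60 CPM in Tet1-KO and 45.6 and 42.0 CPM in Tet1-WT libraries (log2 -2.91, SE 0.60, adjusted p = 0.0325). In the Nodal, BMP and FGF list 2 of 36 genes were called lower, against 0.939% of all tested genes. The list median of 0.08 turned to -0.07 with library totals. Smad5, which carries BMP signals to the nucleus, had 43.7 and 34.0 CPM in Tet1-KO and 112 and 97.8 CPM in Tet1-WT libraries (log2 -1.44, SE 0.26, adjusted p = 0.0135). Id2, a BMP-responsive inhibitor of transcription factors, had 86.6 and 43.8 CPM in Tet1-KO and 339 and 127 CPM in Tet1-WT libraries (log2 -1.84, SE 0.38, adjusted p = 0.0301). The Nodal antagonist Lefty2 had 396 and 329 CPM in Tet1-KO and 166 and 187 CPM in Tet1-WT libraries without passing (log2 1.04, SE 0.68, adjusted p = 0.514). Nodal itself had 42.7 and 49.3 CPM in Tet1-KO and 19.8 and 34.2 CPM in Tet1-WT libraries (adjusted p = 0.79). In each of these genes the genotypes did not overlap.

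Cell cycle genes had called falls in the G1 list alone by edgeR. Of 28 mitotic genes none passed, with a median log2 change of 0.21 (0.07 with libraries scaled by their totals). Top2a, a topoisomerase of dividing cells, had 1315 and 1319 CPM in Tet1-KO and 1008 and 1261 CPM in Tet1-WT libraries. Among 18 G1 cyclins and inhibitors, Cdkn1c and Ccnd2 were called lower, against 0.939% of all tested genes. Ccnd2, cyclin D2, had 61.1 and 28.8 CPM in Tet1-KO and 248 and 147 CPM in Tet1-WT libraries (log2 -2.14, SE 0.48, adjusted p = 0.0453). None of 23 BCL2 family and p53 target genes and none of 21 glycolysis genes was called in the main edgeR fit.

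The 21 rises were of another kind. The largest, leaving out a clone-named X-linked gene, was Nup62cl, an X-linked relative of the nuclear pore protein NUP62, with 56.1 and 73.2 CPM in Tet1-KO and 19.2 and 24.1 CPM in Tet1-WT libraries (log2 1.58, SE 0.27, adjusted p = 0.00904). Kif21a, a kinesin motor, had 42.8 and 39.0 CPM in Tet1-KO and 13.4 and 14.2 CPM in Tet1-WT libraries (log2 1.57, SE 0.33, adjusted p = 0.0311). Lrrc34, a leucine-rich repeat protein known from pluripotent stem cells, had 215 and 220 CPM in Tet1-KO and 63.8 and 94.3 CPM in Tet1-WT libraries (log2 1.46, SE 0.26, adjusted p = 0.0125). These rises were chosen among called genes without overlap between the genotypes. Kctd6 and Emb came next, with 1.43 and 1.01, and then the X-linked genes Map7d2, Bex4 and Bex1, with log2 changes of 1.00, 0.98 and 0.90.

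Other rises came from chaperone, metabolic and DNA repair genes. Hsp90aa1, a stress-inducible chaperone that also serves the piRNA pathway, had 3540 and 3586 CPM in Tet1-KO and 2024 and 2335 CPM in Tet1-WT libraries (log2 0.71, SE 0.14, adjusted p = 0.0206). Asns, asparagine synthetase, had 482 and 442 CPM in Tet1-KO and 243 and 298 CPM in Tet1-WT libraries (log2 0.77, SE 0.17, adjusted p = 0.0383). Hmces, which shields abasic sites in single-stranded DNA, had 118 and 131 CPM in Tet1-KO and 73.2 and 72.4 CPM in Tet1-WT libraries (log2 0.77, SE 0.16, adjusted p = 0.0287). Pttg1, securin, had 182 and 176 CPM in Tet1-KO and 101 and 103 CPM in Tet1-WT libraries (log2 0.81, SE 0.18, adjusted p = 0.0455). Scaling by library totals moved the median of all genes by -0.128 and left 7 rises and 260 falls.

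Pluripotency genes had mostly positive changes. Of 27 tested members 1 was called higher, against 0.12% of all tested genes. For 24 members both Tet1-KO libraries lay above both Tet1-WT libraries, against 26.7% of all tested genes. The called member was Dppa5a, an RNA-binding protein of stem and germ cells, with 1690 and 1700 CPM in Tet1-KO and 925 and 1045 CPM in Tet1-WT libraries (log2 0.78, SE 0.18, adjusted p = 0.0456). The Dppa5a call was lost with median-ratio factors (adjusted p = 0.0598 by edgeR) and with library totals (adjusted p = 0.0796 by edgeR), which left no called member. Other fits called more members, 12 higher and 1 lower with the 4 libraries alone. With no filter on low counts 11 were higher and 1 lower, and by DESeq2 3 and 1. The list median was 0.78 (0.64 with library totals, and -0.30 with the mesenchyme covariate). Pou5f1, the master factor of the germline, had 178 and 206 CPM in Tet1-KO and 153 and 154 CPM in Tet1-WT libraries (log2 0.32, SE 0.28, adjusted p = 0.65). Nanog had 171 and 201 CPM in Tet1-KO and 83.6 and 126 CPM in Tet1-WT libraries (log2 0.83, SE 0.37, adjusted p = 0.318). Tdgf1, the Nodal co-receptor, had 147 and 143 CPM in Tet1-KO and 54.5 and 71.4 CPM in Tet1-WT libraries (log2 1.20, SE 0.56, adjusted p = 0.339).

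Genes of early PGCs had mostly positive changes and no call in the main edgeR fit. With the 4 libraries alone 6 were called higher, with no filter on low counts 5 and by DESeq2 1. Their median over 16 tested members was 0.57, and 13 were higher in Tet1-KO without overlap, against 26.7% of all tested genes. Tfap2c, a factor needed to form PGCs, had 75.7 and 58.0 CPM in Tet1-KO and 27.8 and 32.9 CPM in Tet1-WT libraries (log2 1.14, SE 0.39, adjusted p = 0.188). Nanos3, which keeps PGCs alive, had 55.5 and 46.8 CPM in Tet1-KO and 24.8 and 31.3 CPM in Tet1-WT libraries (log2 0.87, SE 0.32, adjusted p = 0.224). Kit, the receptor for the survival signal KITL, overlapped between genotypes, at 522 and 635 CPM in Tet1-KO and 424 and 607 CPM in Tet1-WT libraries.

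Germline genes that depend on loss of methylation showed no called difference in that fit of all 20 libraries. Of 36 tested methylation-sensitive germline genes none passed in the main edgeR fit, and their median was -0.19. With the 4 libraries alone 3 were called higher and 2 lower, and with no filter on low counts 3 and 5. Dazl, an RNA-binding protein that licenses germ cells, had 968 and 1031 CPM in Tet1-KO and 1049 and 1404 CPM in Tet1-WT libraries (log2 -0.30, SE 0.40, adjusted p = 0.798). Mael, of the piRNA pathway, had 15.3 and 30.6 CPM in Tet1-KO and 38.0 and 47.2 CPM in Tet1-WT libraries (log2 -0.89, SE 0.62, adjusted p = 0.543). Sycp3, a rod protein of meiotic chromosomes, had 29.5 and 27.1 CPM in Tet1-KO and 37.9 and 38.5 CPM in Tet1-WT libraries (log2 -0.43, SE 0.24, adjusted p = 0.417). Ddx4, the helicase of germ cells, overlapped, at 525 and 604 CPM in Tet1-KO and 408 and 562 CPM in Tet1-WT libraries.

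Lists of later germ cell programmes held few calls, where 1.06% of all tested genes were called. The piRNA genes summed to 6106 and 6256 CPM in Tet1-KO and 4347 and 5162 CPM in Tet1-WT libraries. Hsp90aa1 alone held 3540 and 3586 CPM of the Tet1-KO and 2024 and 2335 CPM of the Tet1-WT sums. The piRNA median log2 change was -0.10, with 14 genes below 0 and 11 above. The male germ cell genes summed to 997 and 923 CPM in Tet1-KO and 565 and 648 CPM in Tet1-WT libraries. Of these sums Lefty2 held 396 and 329 CPM against 166 and 187 CPM. The male list median was 0.00, with 10 genes below 0 and 11 above. Among 26 piRNA genes the only call was Hsp90aa1, and among 36 meiotic genes it was Gm4969, the Meiosin gene, a partner of STRA8, at 0 and 0.133 CPM in Tet1-KO and 2.66 and 1.5 CPM in Tet1-WT libraries (log2 -4.69, SE 0.93, adjusted p = 0.0271). The Gm4969 call was lost with limma voom (adjusted p = 0.0829) and with the 4 libraries alone (adjusted p = 0.0621 by edgeR). Stra8 had a read in Tet1-WT 1 alone, at 0.726 CPM. Nanos2, the marker of male fate, was at 0 in all libraries but Tet1-WT 2, at 0.376 CPM, and Dnmt3l had no read in any of the 4. None of 23 male germ cell genes was called in the main edgeR fit, while 2 were called higher with the 4 libraries alone.

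None of 15 tested genes of the DNA methylation machinery was called in the main edgeR fit, with 2 called lower by DESeq2. Other edgeR fits called 3 lower with the 4 libraries alone, 3 with no filter on low counts and 1 with library totals. Their median log2 change was -0.49, with 8 members lower and 4 higher in Tet1-KO libraries without overlap. Over all tested genes 26.6% were lower and 26.7% higher without overlap. Dnmt1, the maintenance methyltransferase, had 298 and 351 CPM in Tet1-KO and 460 and 615 CPM in Tet1-WT libraries (log2 -0.73, SE 0.27, adjusted p = 0.223). Uhrf1, which brings DNMT1 to replicating DNA, had 60.9 and 51.9 CPM in Tet1-KO and 137 and 114 CPM in Tet1-WT libraries (log2 -1.16, SE 0.29, adjusted p = 0.071). Dnmt3a, a de novo methyltransferase, had 83.3 and 69.0 CPM in Tet1-KO and 172 and 119 CPM in Tet1-WT libraries (log2 -0.93, SE 0.38, adjusted p = 0.269). The groups did not overlap for Dnmt1, Uhrf1 or Dnmt3a. Base excision repair genes, one route by which oxidised cytosines are removed, had a median of 0.21 over 14 members and no call. No gene of the PRC2, PRC1.6, H3K9 methyltransferase or imprint guard lists was called in the main edgeR fit. DESeq2 called 2 PRC2 and 2 PRC1.6 genes higher and 1 imprint guard gene lower. The 4 libraries alone called 2 PRC2, 1 PRC1.6 and 2 imprint guard genes higher and 1 imprint guard gene lower.

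**Figure D3:**
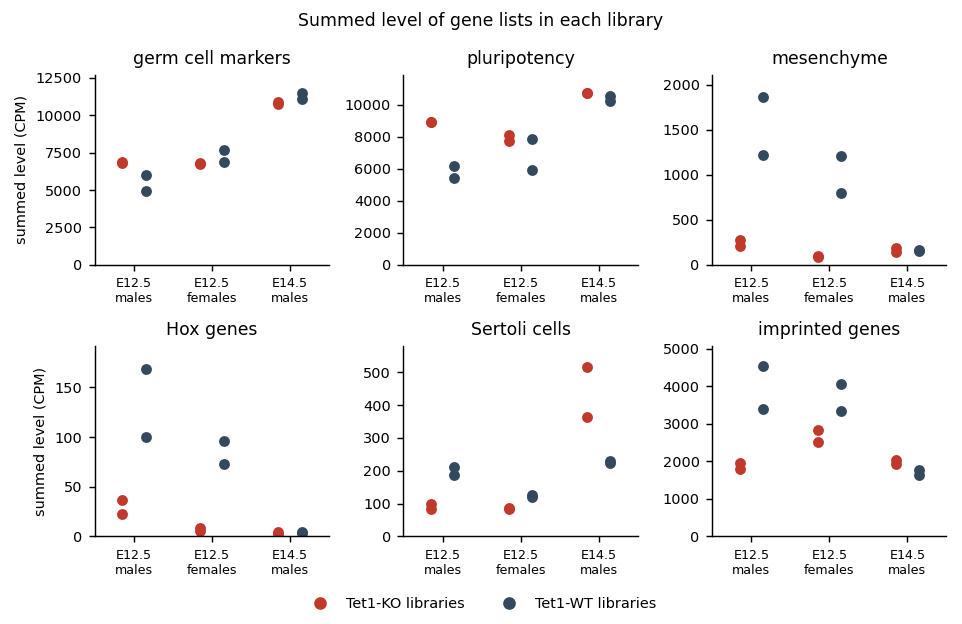
Summed level (CPM) of 6 gene lists in each Tet1-KO (red) and Tet1-WT (dark blue) library of E12.5 males, E12.5 females and E14.5 males. At E12.5 the mesenchyme, Hox and imprinted sums lie lower in Tet1-KO libraries of both sexes, and at E14.5 the mesenchyme sums overlap.

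Germ cells of E12.5 ovaries, which share no library with the testes, showed an overlapping set of falls. There 227 genes were called (1.29%), 202 lower in Tet1-KO (1.15%) and 25 higher (0.142%). The 93 genes lower in both sexes were 56.4% of the male falls and 46.0% of the female falls, and 162 of the 165 male falls had a female change below 0, with a median of -2.12. The single rise called in both was Slc25a4, the mitochondrial ADP/ATP carrier, singled out for this overlap after its values were seen, with 2433 and 2428 CPM in Tet1-KO and 1599 and 1736 CPM in Tet1-WT male libraries (log2 0.54, SE 0.12, adjusted p = 0.0447). No gene was called in opposite directions. The mesenchyme markers summed to 90.7 and 101 CPM in female Tet1-KO and 798 and 1203 CPM in female Tet1-WT libraries, so they moved with genotype in both sexes.

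A test of the difference of effects, males minus females, called 0 genes with edgeR, with 1007 genes at an unadjusted p under 0.05 (5.73%), while limma voom called 0 and DESeq2 31. Among the largest male falls, Hdac10 had a female change of 0.23 and Mcoln3 of -1.19, neither called, and the difference did not pass for either. Igf1, with -5.06 in females, and Nr2f2, with -4.61, fell in both sexes.

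**Figure D4:**
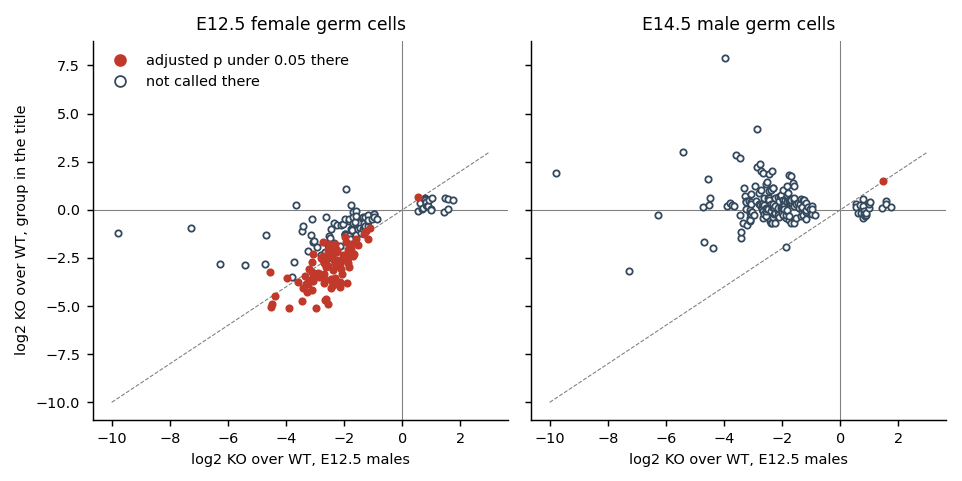
Log2 change, Tet1-KO over Tet1-WT, of the 186 genes called in E12.5 males (horizontal axis) against their change in E12.5 females and in E14.5 males (vertical axes), with red dots for genes called there and a dashed line of equal change. The falls lie near the dashed line in females and around 0 at E14.5.

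At E14.5 only 18 genes were called (0.102%), 14 higher in Tet1-KO (0.0797%) and 4 lower (0.0228%), with 10.3% of genes at an unadjusted p under 0.05. None of the 165 falls was called lower at E14.5, 57 had a change below 0, and their median change was 0.20. Their median level was 11.1 CPM in Tet1-KO and 8.69 CPM in Tet1-WT libraries at that stage, against 13.7 and 68.4 CPM at E12.5. The mesenchyme markers summed to 144 and 188 CPM in Tet1-KO and 152 and 168 CPM in Tet1-WT libraries at E14.5. Sertoli cell genes then summed to 515 and 364 CPM in Tet1-KO and 224 and 230 CPM in Tet1-WT libraries, the opposite order to E12.5, with none called and their part in the result not tested. Of the 21 rises only Lrrc34 was called again, with a log2 change of 1.5 at E14.5 (adjusted p = 0.0416). The difference of effects, E14.5 minus E12.5, used the same E12.5 male libraries that chose the falls and rises. Genes shared between them are therefore partly built in. The difference was called for 141 genes (0.803%), 129 higher (0.734%) and 12 lower (0.0683%), with 68 of the 165 falls and 4 of the 21 rises among them. Leaving out 1 E12.5 male library at a time gave 19 to 90 such genes, 19 without Tet1-WT 1.

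The calls depended on single libraries. A fit without 1 library leaves 1 library in its group, which is then assumed to vary like the other groups of the fit. With Tet1-KO A left out 30 genes were called, with Tet1-KO B left out 1, with Tet1-WT 1 left out 4 and with Tet1-WT 2 left out 170. No gene stayed under the threshold in all 4 of these fits, and Ecm1, a matrix protein at 15.8 ± 4.69 CPM in Tet1-KO and 150.0 ± 24.9 CPM in Tet1-WT libraries (SD, n = 2 each), came closest, with an adjusted p of 0.0539 at most by edgeR. No called change turned sign in these 4 fits, but all 165 falls and 21 rises were without overlap between genotypes. This outcome was therefore all but fixed in advance.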

How the data were processed

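Sorted germ cells were sequenced as polyA RNA. Per the submitters' processing notes, reads were trimmed with Trimmomatic, aligned to mm9 with TopHat2 2.0.2 over Bowtie 0.12.8 and counted with HTSeq 0.5.3p9, and the authors deposited raw counts for 37991 genes, 32919 of them with a symbol. Strand setting and treatment of multi-mapping reads are not given in the sources used here, so genes with close copies or antisense partners are uncertain. All 20 libraries of the Tet1 cross entered 1 edgeR 4.0.16 quasi-likelihood fit (R 4.3.3) with a coefficient for each of 10 groups, TMM factors and filterByExpr (minimum count 10, total 15), which kept 17567 genes. The common biological coefficient of variation was 0.46. P-values were adjusted by Benjamini-Hochberg and called below 0.05, and the steps were tested on simulated data. With 2 libraries a group they measure the spread between pooled libraries, which may be technical. Library pairs were compared to look for one library deposited under 2 names, and both differed beyond counting noise (chi-square per degree of freedom 13.0 for the Tet1-KO and 23.7 for the Tet1-WT pair), which does not show that they came from separate litters. The members and gene lists were chosen with earlier results of these data known. Genes were named by rule: Tet1, the 20 largest falls and 15 largest rises without overlap, with a mean of at least 5 CPM in a group and a full symbol, called list members or up to 3 of the highest level in lists without a call, a set of germ cell genes, and up to 10 genes per difference of effects. Promoters came from RefSeq on GRCm38.p6 and were matched by symbol, while the counts use mm9. Alternatives were DESeq2 1.42.0, limma 3.58.1 voom, other scalings and filters, the 4 libraries alone, a mesenchyme covariate and leaving out each library.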

Additional observations from a re-analysis of the deposited data

Results flagged for a closer look

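The effect of Tet1 loss in males differed between E14.5 and E12.5 for 141 genes, by edgeR's quasi-likelihood test of the difference itself (E14.5 minus E12.5, Benjamini-Hochberg). The 10 genes with the smallest p all had a higher effect at E14.5, with adjusted p of 0.00447 or 0.00492. Grb10 differed by 6.15 on the log2 scale (SE 0.76), with 15.0 and 16.5 CPM in Tet1-KO and 3.98 and 6.47 CPM in Tet1-WT libraries at E14.5. Pdgfrb differed by 6.41 (SE 0.83), with 4.26 and 1.76 CPM in Tet1-KO and 0.178 and 0.599 CPM in Tet1-WT libraries at E14.5. Cdh11, a mesenchymal cadherin, differed by 5.15 and Tenm4, a teneurin of the cell surface, by 4.73. Gas7 differed by 4.36, Rnd3 by 4.0, Ecm1 by 3.63, the collagen chaperone gene Serpinh1 by 2.99 and Cd81 by 2.19. Gstm2, a glutathione transferase, differed by 2.0 (SE 0.25) and was not called at E12.5, at 107 and 101 CPM in Tet1-KO and 157 and 165 CPM in Tet1-WT libraries. At E14.5 it was called higher, at 319 and 305 CPM in Tet1-KO and 133 and 108 CPM in Tet1-WT libraries (log2 1.37, adjusted p = 0.00619). The mesenchyme markers moved with these effects at E12.5, and their part in the difference was not tested beyond the covariate fit.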

How the results depend on the processing

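No paired analysis was possible because the 2 Tet1-KO columns carry the same name and no replicate number, so the planned replicate block was not run. The 186 calls in E12.5 males (21 higher, 165 lower) became 1312 with the 4 libraries alone (416 higher, 896 lower), 836 with DESeq2 (189 and 647), 901 with no filter on low counts (174 and 727) and 0 with the mesenchyme covariate. Median-ratio factors gave 13 higher and 182 lower, library totals 7 and 260, and a minimum count of 50 gave 52 and 196. Leaving out 1 library gave 1 to 170 calls. The difference between males and females, 0 genes, became 31 with DESeq2 and 111 with no filter. The difference between E14.5 and E12.5, 141 genes, became 956 with DESeq2, 1039 with no filter and 1 with the covariate, and 19 to 90 with 1 library left out. With the covariate the log2 change turned sign for Islr (0.66), Nnat (0.28), Lrrc34 (-0.40), Id2 (0.78), Stra6 (0.77), Cdkn1c (0.86), Igf2 (1.14), Mest (0.02), Ccnd2 (0.59), Meis1 (0.44), Col3a1 (0.50) and Fbln1 (0.59). The causes were not tested.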
